A study of Campylomormyrus compressirostris and Campylomormyrus rhynchophorus and Campylomormyrus compressirostris x Campylomormyrus rhynchophorus with 15 samples.

Results

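The electric organ transcriptome of juvenile F1 hybrids was compared with that of juvenile *Campylomormyrus compressirostris* (*com*), 2 groups of weakly electric fish whose discharge had the same short duration by the study's account. Members were chosen by their sample titles: the 5 libraries titled comrhy are hybrids, the 5 titled com followed by a number are *com*, and these are 10 of the 15 libraries of the series. Each hybrid is the F1 offspring of a *C. compressirostris* male and a *C. rhynchophorus* (*rhy*) female, so that each carries 1 set of chromosomes from each species, and the *com* fish are purebred. Both groups were bred and raised in captivity at the same university, were labelled with a length of 6 cm and gave 1 library per fish. Neither treatment nor sex is given per fish, and both groups share the tissue, the juvenile stage and the library protocol. By the study's text some juvenile hybrids already had a slightly longer discharge, and these fish could not be matched to libraries. Juvenile *rhy*, the mother species, was left out of the main tests below and entered only an alternative fit of all 15 libraries.

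The electric organ of mormyrid fish is derived from skeletal muscle, and its cells, the electrocytes, no longer contract. They fire action potentials together, and the summed current is the electric organ discharge (EOD), which serves communication and the sensing of objects. The time course of an action potential is set by voltage-gated sodium channels, which start it, and by potassium channels, which end it and hold the resting potential. Genes of these channels, and of the membrane and cytoskeleton that shape an electrocyte, are therefore the usual candidates for the form and duration of the EOD.

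RNA was captured by its poly(A) tail and sequenced as strand-specific libraries. The values analysed here are expected counts per gene model, which divide reads that fit several genes among them, and levels are in CPM, counts per 1000000 after TMM scaling (a correction of the library total by the trimmed mean of log ratios between libraries). Library totals were 12973350 to 19259304 counts in the hybrids and 8346577 to 11549622 in *com*, and the number of genes with a count was 21058 to 22336 in hybrid and 20538 to 21678 in *com* libraries. When every library was thinned to 8346577 counts, the hybrids had 20881 ± 289 genes with a count and *com* 20819 ± 321 (SD, n = 5 fish each), a difference of 61.9 genes (two-sided exact permutation test, p = 0.833, Benjamini-Hochberg adjusted over 2 library measures 0.833). No pair of libraries within a group was a copy, with differences in counts of 20.3 to 140 times what sampling gives (chi-square over its degrees of freedom). Across genes, log2 CPM of 2 fish correlated by 0.927 to 0.965 within the hybrids, by 0.915 to 0.960 within *com* and by 0.882 to 0.921 between the groups, where genes are not independent replicates. The fish com104 stood apart from the other *com* fish for several abundant genes, and values of several genes are given with and without it. Reads of both groups were assigned to gene models of *C. compressirostris*. The hybrids carry 1 *com* set of chromosomes, and reads from their *rhy* alleles could match these models less well or be assigned to another model. The part of this in the differences between the groups was not tested.

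Hybrids and *com* formed 2 separate clusters along the first principal component, although their EOD has the same duration. PC1 held 35.0% of the variance in log2 CPM of the 10 fish, PC2 15.1% and PC3 11.6%. The PC1 scores were 42.7, 77.6, 49.1, 63.9 and 34.8 in the hybrids comrhy59 to comrhy63. In *com* they were -47.8 (com104), -38.4 (com121), -65.7 (com123), -66.5 (com124) and -49.6 (com125). All hybrids thus lay above all *com* fish, with means of 53.6 ± 17.2 in the hybrids and -53.6 ± 12.2 in *com* (SD, n = 5 each; p = 0.00794 by a two-sided exact permutation test, the smallest p its 252 assignments can give). PC2 spread the *com* fish, with an SD of 24.1 in the hybrids and 51.99 in *com*, and PC3 spread the hybrids, with an SD of 48.3 in the hybrids and 9.29 in *com*. On PC2, com104 (51.5) and com121 (53.4) lay far from com125 (-69.4), and on PC3 comrhy60 (61.4) and comrhy62 (27.4) lay apart from comrhy59 (-47.2), comrhy63 (-43.0) and comrhy61 (-30.7).

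**Figure D1:**
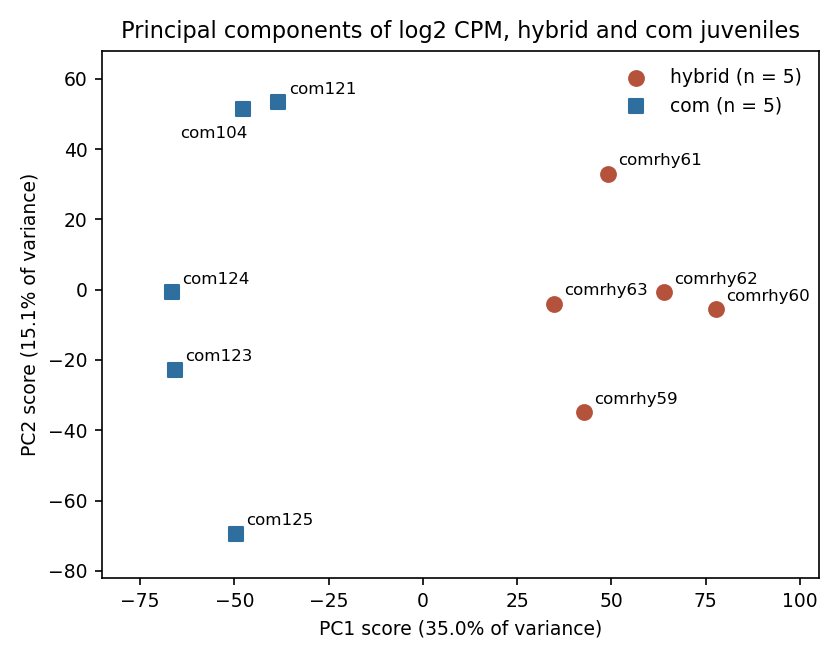
Scores of the first (x axis) and second (y axis) principal component of log2 CPM, 1 point per fish, with circles for 5 hybrids and squares for 5 *com* fish. All hybrids lie at or above 34.8 on PC1 and all *com* fish at or below -38.4, while PC2 spreads the *com* fish from -69.4 to 53.4.

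A gene was called when its adjusted p was under 0.05 and its log2 fold change, hybrid over *com*, lay beyond 1 in either direction (quasi-likelihood test of edgeR, p-values adjusted by Benjamini-Hochberg over all genes tested). Genes needed more than 10 counts in 2 or more of the 10 libraries to be tested, and of these 18004 genes 1522 were called (8.45%). Of these, 703 (3.9% of the genes tested) were higher and 819 (4.55%) lower in the hybrids, a share of 46.2% higher among the calls. With library totals in place of TMM, 1147 were higher and 592 lower (66.0% higher), as the median log2 fold change of all genes then moved to 0.21, against 0.015 with TMM. Without the fold limit 3544 genes passed (19.7%), 1647 higher (9.15%) and 1897 lower (10.5%). For 2746 genes (15.3%) the 5 hybrids did not overlap the 5 *com* fish, with 1318 (7.32%) higher and 1428 (7.93%) lower in the hybrids, and 1096 genes (6.09%) were both called and separate. The p-values measure the spread between single fish, and in whole electric organs fewer cells of a type and less RNA per cell cannot be told apart.

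Most called differences were modest. The median log2 fold change was 1.77 among the genes higher in the hybrids and -1.59 among those lower, and 63.1% of all calls lay within 2 on the log2 scale. Beyond 5 lay 62 genes higher and 38 lower in the hybrids. Among the 101 genes with a mean above 1000 CPM, 3 were higher and 7 lower, and among the 1529 genes between 100 and 1000 CPM, 40 were higher and 102 lower. In the weakest class, up to 1 CPM, the order was turned round, with 108 higher and 66 lower of 2055 genes. The median log2 fold change over all genes of a class was 0.23 up to 1 CPM and -0.18 above 1000 CPM. To be tested, a gene needed more than 10 counts in 2 or more libraries, and the hybrids were sequenced more deeply. A weak gene could therefore enter at a lower CPM through the hybrids than through *com*. In the weakest class this favours genes higher in the hybrids. The parts of depth and of this filter in the values by class were not tested.

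**Figure D2:**
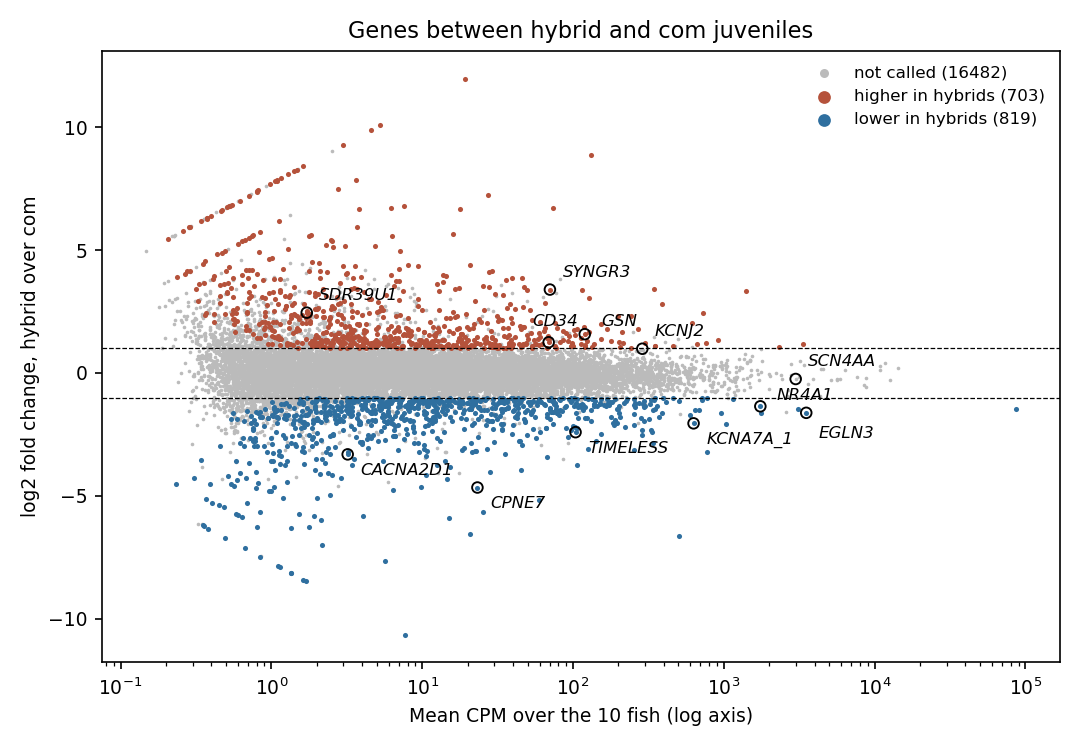
Log2 fold change of each of the 18004 genes tested (y axis, hybrid over *com*) against its mean CPM over the 10 fish (x axis, log axis). Red points are the 703 genes called higher and blue points the 819 called lower in the hybrids, grey points were not called, dashed lines mark the fold limit of 1, circles mark named genes, and points on the sloping lines at low CPM are genes at or near 0 in 1 group, whose fitted fold depends on a small added count.

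Some genes had almost no counts in 1 of the groups. Among the genes called lower, 31 had at most 3 counts over all 5 hybrids, 13 of them 0, and 10 of the 31 had a count in every *com* fish. Among those called higher, 75 had at most 3 counts over all 5 *com* fish, 33 of them 0, and 51 of the 75 had a count in every hybrid. Since the hybrids were sequenced more deeply, the same level corresponds to more counts there. At an equal limit of 0.0646 CPM 45 genes called lower were near 0 in the hybrids and 75 called higher were near 0 in *com*. Most were weak in the other group too, with a median of 1.20 CPM in the hybrids for those near 0 in *com*, and of 1.26 CPM in *com* for those near 0 in the hybrids. The equal limit covers only the group near 0. Because the filter asks for counts, a gene near 0 in *com* could pass it at a lower CPM than a gene near 0 in the hybrids. The part of the filter in the excess of genes near 0 in *com* was not tested.

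Some gene models without a name in the sources used here were absent from 1 group. Those given are the called ones of largest fold change in each direction whose groups did not overlap. With 0 counts in 1 group, counts in every fish of the other group follow from this choice. Their folds and adjusted p are values by which they were chosen. The model maker-ptg000514l-snap-gene-9.2 had 0 counts in all hybrids, against 25.8, 9.82, 13.9, 13.1 and 13.9 CPM in com104, com121, com123, com124 and com125. As a group, *com* was at least 440-fold higher (floor of 3 counts over the group, counting error only; adjusted p = 0.000102). The model maker-ptg000343l-snap-gene-3.155 likewise had 0 counts in the hybrids, against 3.55, 0.281, 3.63, 3.72 and 2.36 CPM in *com*, which was at least 73.6-fold higher (adjusted p = 0.00340). In the opposite direction, snap_masked-ptg000294l-processed-gene-1.11 had 5.98, 35.7, 1.67, 1.39 and 7.38 CPM in comrhy59 to comrhy63 and 0 counts in *com*. The hybrids were at least 172-fold above *com* as a group (adjusted p = 0.0148), with comrhy60 far above the others, and at least 66.0-fold without comrhy60 (adjusted p = 0.00793). The model maker-ptg000389l-snap-gene-3.48 was split within the hybrids, at 57.7, 70.4 and 64.6 CPM in comrhy59, comrhy60 and comrhy62 but 0.486 and 0.0495 CPM in comrhy61 and comrhy63, with 0 counts in *com* (at least 592-fold higher over the group, adjusted p = 0.0348). Its call was lost without any 1 of comrhy59, comrhy60, comrhy62, com121, com123, com124 and com125 (adjusted p = 0.0531 to 0.0658).

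Few of the called genes had a fish far below the median of its group, but a call itself favours genes with little spread within a group. A gene low in most fish of a group, or with 1 fish far above the rest, does not enter this count. The share over all genes tested was not computed. Of 656 genes called higher whose hybrid mean was at least 1 CPM, 35 (5.34%) had a hybrid below 0.1 times the hybrid median, most often comrhy63 (18 genes) or comrhy61 (14 genes). Among 802 genes called lower with a *com* mean of at least 1 CPM, 40 (4.99%) had such a *com* fish, with com104 (15 genes) and com121 (14 genes) the most frequent.

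The most abundant gene model, which carries no name in the sources used here, separated com104 from the other *com* fish. It took 4.61, 5.16, 4.38, 4.83 and 5.89% of all counts in comrhy59 to comrhy63. In *com* it took 3.63% in com104 and 19.3, 15.4, 9.70 and 10.9% in com121, com123, com124 and com125. The hybrids were thus narrow and low, 4 *com* fish were high, and com104 lay below every hybrid. The log2 fold change was -1.45 (SE 0.37, adjusted p = 0.0193), and -1.69 without com104 (SE 0.21, adjusted p = 0.000704). The 10 most abundant genes together held 15.3 ± 0.788% of the counts in the hybrids and 20.96 ± 4.58% in *com* (SD, n = 5 each), a difference of -5.64 percentage points (two-sided exact permutation test, p = 0.0317, adjusted over 2 library measures 0.0635). With the counts of this gene left out before scaling, an alternative added after the data were seen, 710 genes were higher and 805 lower, and 1507 calls were shared (99.0% of the 1522 calls and 99.5% of the others).

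Among gene models with a name, 132 of 142 could be tested and 27 were called (20.5%, against 8.45% of all genes), 11 higher and 16 lower in the hybrids. The names come from the study's lists of candidates for EOD duration and of genes with a shift in allele share. These were chosen on these and further samples, so this share is not independent evidence. The lists by function below are made up of these named genes alone. Their shares have the same limit and do not describe a function as a whole. Of the 88 tested candidates for EOD duration, 9 were higher and 14 lower (median log2 fold change of the list -0.24), and of the 37 tested genes with a shift in allele share 2 were higher and 1 lower (median -0.10). The median over all genes was 0.015. In 23 of the 27 called genes the groups did not overlap, as in 1096 of all 1522 called genes (72.0%), and *PCDH11*, *NR4A1*, *ZFYVE28* and *DACH1_a* were the exceptions. A further 17 named genes passed the adjusted p but lay inside the fold limit, among them *KCNJ2*, *CLDN11* and *PPP1R3A*. Of all 18004 genes 3544 passed the adjusted p, and 1522 of these lay beyond the limit. The 17 of 132 named genes inside the limit are thus near the share over all genes. The 13 tested genes of RNA and protein handling held 0 calls (edgeR; 1 lower and 0 higher at an unadjusted p under 0.05, and 0 calls by DESeq2).

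**Figure D3:**
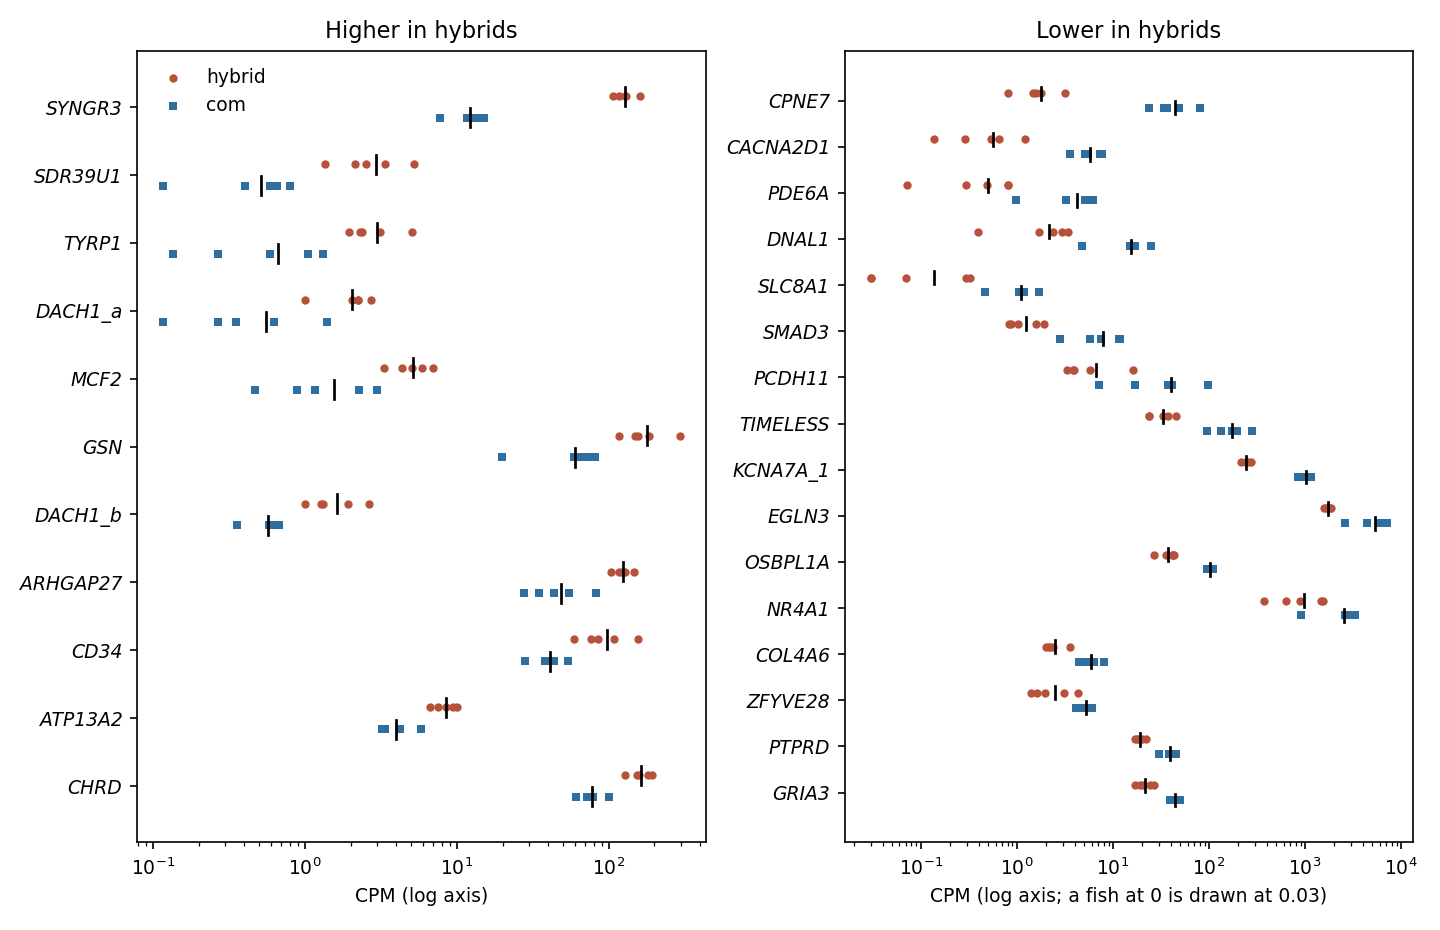
CPM (x axis, log axis) of the 27 called named genes, 1 symbol per fish, with circles for 5 hybrids drawn above squares for 5 *com* fish and a vertical line at each group's mean. The 11 genes on the left were higher and the 16 on the right lower in the hybrids, ordered by fold change from *SYNGR3* (3.39) and *CPNE7* (-4.66) downwards, and the 2 hybrids with 0 counts of *SLC8A1* are drawn at the left edge.

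Named ion channels and transporters held 5 calls among 13 tested genes (38.5%, against 20.5% of all named genes and 8.45% of all genes tested). Of these, 1 was higher and 4 were lower, and the median log2 fold change of the list was -0.24 (0.015 over all genes). *KCNA7A_1* (maker-ptg000028l-snap-gene-81.10), which encodes a Kv1-type potassium channel opened by voltage, had 213, 253, 272, 244 and 243 CPM in comrhy59 to comrhy63. In com104, com121, com123, com124 and com125 it had 1114, 839, 1014, 1151 and 954 CPM. Every *com* fish stood far above every hybrid and the spread within either group was small. The log2 fold change of this gene was -2.05 (SE 0.12, adjusted p = 5.23e-06), and if the suffix marks 1 of several copies, RSEM divided shared reads between them by estimate.

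*CACNA2D1* (maker-ptg000994l-snap-gene-2.19), the gene of an alpha2delta-type calcium channel subunit, had 0.288, 0.655, 0.139, 1.22 and 0.544 CPM in the hybrids, against 5.15, 5.52, 7.26, 3.60 and 7.68 CPM in *com* in the same order of fish. The hybrids were almost without it, at 50 counts over 5 fish against 267 in the more shallow *com* libraries, and the log2 fold change was -3.31 (SE 0.46, adjusted p = 0.000992). *SLC8A1* (maker-ptg001574l-snap-gene-0.12), a sodium-calcium exchanger, had 0, 0.327, 0.0694, 0 and 0.297 CPM in the hybrids and 1.07, 1.68, 1.08, 0.464 and 1.18 CPM in *com*. The groups did not overlap (-2.83, SE 0.80, adjusted p = 0.0294), but these are 13 counts against 52, and the adjusted p was 0.0602 without comrhy61, 0.0546 without com123, 0.0504 without com125 and 0.0599 in the fit of all 15 libraries. *GRIA3* (maker-ptg000442l-snap-gene-12.8), a subunit of AMPA-type glutamate receptors, had 17.1, 27.1, 20.8, 24.5 and 19.0 CPM in the hybrids and 48.2, 39.2, 49.6, 43.2 and 39.1 CPM in *com*. Its log2 fold change of -1.02 (SE 0.14, adjusted p = 0.00100) stood at the fold limit, and it was -0.92, -0.97, -0.98 and -0.97 without comrhy59, comrhy63, com104 and com123, and -0.81 with library totals. *ATP13A2* (maker-ptg000442l-augustus-gene-28.32), a lysosomal cation-transporting ATPase, was the channel or transporter gene called higher, with 6.70, 9.49, 10.1, 8.47 and 7.57 CPM in the hybrids and 3.37, 4.21, 3.23, 3.25 and 5.79 CPM in *com*. All hybrids lay above all *com* fish (1.09, SE 0.20, adjusted p = 0.00441).

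*KCNJ2* (maker-ptg000265l-est_gff_est2genome-gene-6.33), an inward rectifier potassium channel that holds the resting potential, differed between the groups except for com104. It had 393, 351, 384, 335 and 451 CPM in comrhy59 to comrhy63. In *com* it had 363 CPM in com104, and 108, 147, 173 and 175 CPM in com121, com123, com124 and com125. The fish com104 lay within the range of the hybrids, and the other *com* fish lay far below it. Over all fish the log2 fold change was 0.99 (SE 0.27, adjusted p = 0.0284), just inside the fold limit, and without com104 it was 1.34 (adjusted p = 0.000457). It also passed the limit at 1.03 without comrhy60 and 1.04 without comrhy62, at 1.003 without a filter and 1.001 with that of filterByExpr, and at 1.17 with library totals. With 1 fish left out the log2 fold change ranged from 0.83 to 1.34, so it also fell further inside the limit.

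The sodium channel gene *SCN4AA* (maker-ptg001188l-snap-gene-6.0), whose channel carries the rising phase of the electrocyte action potential, was not called. It had 2484, 2938, 2639, 2821 and 2823 CPM in the hybrids and 4833, 2661, 2821, 3299 and 2623 CPM in *com*. The fish com104 was again the highest, while the other *com* fish lay within or just above the hybrids (-0.24, SE 0.17, adjusted p = 0.350; -0.058 without com104, adjusted p = 0.736). A potassium channel gene of the Kv7 family, *KCNQ5A* (maker-ptg000697l-snap-gene-6.107), had 9.99 ± 1.77 CPM in the hybrids and 9.82 ± 4.53 CPM in *com* (SD, n = 5 each), a difference of 0.021 on the log2 scale (SE 0.30, adjusted p = 0.969).

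Named genes of signalling and vesicle release moved in both directions, with 3 higher and 3 lower of 27 tested. This was 22.2% called, against 20.5% of all named genes and 8.45% of all genes, with a median log2 fold change of -0.23. *SYNGR3* (maker-ptg000120l-snap-gene-2.54), a membrane protein of synaptic vesicles, had 107, 127, 160, 131 and 116 CPM in comrhy59 to comrhy63. In com104, com121, com123, com124 and com125 it had 15.1, 7.76, 11.7, 13.6 and 12.9 CPM. The lowest hybrid was thus several times above the highest *com* fish, and the log2 fold change of 3.39 (SE 0.19, adjusted p = 5.23e-06) was the largest among the called named genes higher in the hybrids. The opposite case was *CPNE7* (maker-ptg000950l-augustus-gene-2.9), which encodes a copine, a protein that attaches to membranes when calcium rises. It had 1.59, 0.818, 3.19, 1.80 and 1.48 CPM in the hybrids and 48.5, 36.7, 80.7, 33.9 and 23.6 CPM in *com*. Its log2 fold change of -4.66 (SE 0.42, adjusted p = 9.02e-05) was the lowest among the named genes.

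*MCF2* (maker-ptg000529l-snap-gene-2.33), a guanine nucleotide exchange factor, had 6.99, 5.89, 3.33, 4.35 and 5.10 CPM in the hybrids and 0.888, 2.99, 2.29, 1.16 and 0.473 CPM in *com* (1.71, SE 0.42, adjusted p = 0.0170). *CHRD* (maker-ptg000160l-snap-gene-11.44), the secreted BMP antagonist chordin, had 182, 129, 157, 153 and 194 CPM in the hybrids and 61.3, 79.2, 77.2, 71.8 and 100.2 CPM in *com*. Neither gene overlapped between the groups, but *CHRD* stood at the fold limit, at 1.06 on the log2 scale (SE 0.15, adjusted p = 0.00111) and 0.99 both without comrhy63 and without com104. *PDE6A* (maker-ptg001220l-snap-gene-3.79), a cGMP phosphodiesterase known from rod photoreceptors, had 0.0721 to 0.818 CPM in the hybrids and 0.977 to 6.19 CPM in *com*, with com104 the lowest *com* fish (-3.04, SE 0.59, adjusted p = 0.00565; -3.30 without com104). *ZFYVE28* (maker-ptg000027l-snap-gene-33.3), a regulator of growth factor receptor traffic, had 1.42 to 4.37 CPM in the hybrids and 4.08 to 6.03 CPM in *com*. Only comrhy61 reached the *com* range, and the call (-1.06, SE 0.31, adjusted p = 0.0331) was lost without any 1 of comrhy59, comrhy60, comrhy62, com121, com123, com124 and com125 (adjusted p = 0.0526 to 0.0766) and with library totals (adjusted p = 0.0649).

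The vesicle priming gene *CADPS* (maker-ptg000119l-snap-gene-11.24) had 21.3, 26.6, 24.4, 38.4 and 36.1 CPM in the hybrids and 12.7, 49.4, 19.1, 25.3 and 20.9 CPM in *com*. The single fish com121 exceeded all hybrids, and the groups did not differ beyond their spread (0.20, SE 0.32, adjusted p = 0.688). *HIP1* (maker-ptg000399l-augustus-gene-13.63), which links clathrin-coated vesicles to actin, had 189 ± 29.6 CPM in the hybrids and 213 ± 19.95 CPM in *com* (SD, n = 5 each; -0.17, SE 0.12, adjusted p = 0.335), and its sign changed with library totals (0.027).

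Among 14 tested named transcription regulators, 2 were higher and 3 lower, with a median log2 fold change of -0.55. This was 35.7% called, against 20.5% of all named genes and 8.45% of all genes. The 2 higher were the models *DACH1_a* and *DACH1_b*, which may be pieces of 1 gene counted more than once. *TIMELESS* (maker-ptg000338l-snap-gene-6.187), a protein of the replication fork and the circadian system, had 37.8, 45.7, 23.6, 23.9 and 33.6 CPM in the hybrids and 94.5, 133, 196, 175 and 277 CPM in *com*. The highest hybrid stood below the lowest *com* fish, com104 (-2.41, SE 0.29, adjusted p = 0.000517; -2.57 without com104). *NR4A1* (maker-ptg000338l-augustus-gene-6.58), an orphan nuclear receptor, had 633, 371, 1534, 1475 and 890 CPM in the hybrids and 900, 3326, 2872, 2834 and 2620 CPM in *com*. Both groups were uneven, as com104 lay within the hybrids and far below the other *com* fish, and without it the log2 fold change was -1.57 (adjusted p = 0.0120). The call (-1.36, SE 0.42, adjusted p = 0.0434) was lost without any 1 of comrhy59, comrhy60, comrhy63, com121, com123, com124 and com125 (adjusted p = 0.0712 to 0.0932), in the fit of all 15 libraries (0.0659) and with library totals (0.0701). Both models lie on contig ptg000338l, and whether reads were shared between them was not tested.

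*SMAD3* (snap_masked-ptg002330l-processed-gene-0.23), a transducer of TGF-beta signals, had 0.865, 1.04, 0.833, 1.91 and 1.58 CPM in the hybrids and 2.84, 7.57, 5.78, 11.7 and 11.7 CPM in *com*. Every hybrid lay below every *com* fish (-2.64, SE 0.41, adjusted p = 0.00173), on a short gene model of 219 bases. *DACH1*, a transcription cofactor, is represented by models on contig ptg000922l that may be pieces of 1 gene. *DACH1_b* (maker-ptg000922l-augustus-gene-6.4) had 1.01, 1.31, 2.64, 1.28 and 1.93 CPM in the hybrids and 0.355, 0.655, 0.672, 0.581 and 0.591 CPM in *com*, with no overlap (1.51, SE 0.37, adjusted p = 0.0170). *DACH1_a* (maker-ptg000922l-snap-gene-6.10) had 1.01 to 2.73 CPM in the hybrids and 0.116 to 1.40 CPM in *com*, where com121 was the highest (1.83, SE 0.54, adjusted p = 0.0359). The call of *DACH1_a* was held without comrhy59 or com121 (2.51 without com121), but was lost without any 1 of the other 8 fish (adjusted p = 0.0530 to 0.0809) and in the fit of all 15 libraries (0.0555). The Polycomb gene *RYBP* (maker-ptg001058l-augustus-gene-1.50) had 4.46 ± 1.67 CPM in the hybrids and 2.99 ± 1.42 CPM in *com* (SD, n = 5 each) and was not called (0.57, SE 0.35, adjusted p = 0.281).

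Of 16 tested genes of adhesion, junctions and matrix, 1 was higher and 3 were lower (4 calls, against 8.45% of all genes tested), with a median log2 fold change of 0.023. *PTPRD* (maker-ptg000314l-snap-gene-8.31), a receptor tyrosine phosphatase of cell adhesion, had 19.96, 17.95, 22.1, 18.7 and 17.1 CPM in the hybrids and 29.9, 38.1, 38.9, 44.8 and 45.4 CPM in *com*. The groups were well apart, while the log2 fold change of -1.04 (SE 0.13, adjusted p = 0.000561) stood at the fold limit and was -0.99 without com124, -0.98 without com125 and -0.83 with library totals. *COL4A6* (maker-ptg000136l-snap-gene-4.37), a chain of the type IV collagen of basement membranes, had 2.02 to 3.61 CPM in the hybrids and 4.44 to 8.01 CPM in *com* (-1.25, SE 0.23, adjusted p = 0.00435). *PCDH11* (maker-ptg000150l-augustus-gene-9.7), a protocadherin, was the most uneven of these genes, with 3.96, 5.78, 3.89, 16.1 and 3.37 CPM in the hybrids and 37.7, 7.11, 97.5, 17.1 and 41.4 CPM in *com*. The hybrid comrhy62 exceeded com121, and the adjusted p of 0.0206 (-2.59, SE 0.67) was 0.0504 without comrhy61 and 0.0527 without com123, where the log2 fold change was -1.96. Without comrhy62 it was -3.21. *CD34* (maker-ptg000439l-augustus-gene-0.53), a surface glycoprotein of endothelial and progenitor cells, had 85.2, 58.98, 109, 76.6 and 155 CPM in the hybrids and 40.3, 28.2, 38.3, 43.7 and 53.5 CPM in *com* (1.25, SE 0.25, adjusted p = 0.00669). The claudin gene *CLDN11* (maker-ptg001737l-snap-gene-0.24) had 64.1, 62.7, 56.4, 57.8 and 47.0 CPM in the hybrids and 22.8, 39.3, 28.5, 33.9 and 40.9 CPM in *com*. Its groups did not overlap either, but its log2 fold change of 0.80 (SE 0.16, adjusted p = 0.00654) lay inside the limit, and at 1.004 (adjusted p = 0.00188) just beyond it with library totals.

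The cytoskeleton list had 2 higher and 1 lower of 17 tested genes, with a median log2 fold change of -0.053. This was 17.6% called, against 20.5% of all named genes and 8.45% of all genes. The gene of gelsolin, which severs and caps actin filaments, *GSN* (maker-ptg002297l-snap-gene-0.45), had 148, 117, 155, 183 and 293 CPM in the hybrids and 19.98, 65.7, 58.9, 74.0 and 81.5 CPM in *com*. The fish com104 was the lowest and comrhy63 the highest, and the groups did not overlap (1.58, SE 0.35, adjusted p = 0.0103; 1.35 without com104). *ARHGAP27* (maker-ptg001188l-snap-gene-7.46), a GTPase-activating protein, had 129, 147, 117, 122 and 104.05 CPM in the hybrids and 82.5, 54.9, 34.8, 27.6 and 43.4 CPM in *com*, with com104 nearest to the hybrids (1.34, SE 0.26, adjusted p = 0.00498; 1.62 without com104). *DNAL1* (maker-ptg001063l-augustus-gene-1.73), a dynein light chain by its symbol but a light intermediate chain by the study's description, had 3.39, 1.69, 2.36, 2.96 and 0.396 CPM in the hybrids and 4.80, 15.2, 16.9, 25.2 and 15.1 CPM in *com*. Here too com104 lay nearest to the hybrids without reaching them (-2.85, SE 0.52, adjusted p = 0.00416; -3.08 without com104).

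In metabolism, 2 of 17 tested named genes were higher and 2 lower, with a median log2 fold change of -0.37. This was 23.5% called, against 20.5% of all named genes and 8.45% of all genes. *EGLN3* (maker-ptg000051l-augustus-gene-36.18), a prolyl hydroxylase that acts on hypoxia-inducible factor, had 1584, 1657, 1713, 1799 and 1876 CPM in the hybrids and 2629, 4361, 6290, 7180 and 6087 CPM in *com*. The hybrids were narrow, and com104 was the *com* fish nearest to them (-1.62, SE 0.24, adjusted p = 0.00136; -1.79 without com104). *OSBPL1A* (maker-ptg000544l-snap-gene-0.7), an oxysterol-binding protein, had 40.9, 41.8, 43.0, 35.7 and 26.9 CPM in the hybrids and 111, 96.8, 109, 97.6 and 95.9 CPM in *com*, where com104 did not stand apart (-1.44, SE 0.13, adjusted p = 9.70e-05). *SDR39U1* (maker-ptg001156l-snap-gene-6.104), of the short-chain dehydrogenases, had 1.36 to 5.19 CPM in the hybrids and 0.116 to 0.799 CPM in *com* (2.45, SE 0.48, adjusted p = 0.00584). *TYRP1* (snap_masked-ptg000047l-processed-gene-21.0), an enzyme of melanin synthesis, had 1.94 to 5.05 CPM in the hybrids and 0.134 to 1.31 CPM in *com* (2.12, SE 0.51, adjusted p = 0.0153). Both genes were weak but free of overlap.

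*PPP1R3A* (snap_masked-ptg002234l-processed-gene-0.17), which directs protein phosphatase 1 to glycogen in muscle, had 129, 135, 122, 125.3 and 143 CPM in the hybrids and 249, 215, 251, 302 and 226 CPM in *com*. The groups were far apart relative to their spread, yet the log2 fold change of -0.93 (SE 0.11, adjusted p = 0.000406) lay inside the fold limit. *CPT2* (maker-ptg000744l-snap-gene-3.34), of mitochondrial fatty acid oxidation, had 35.1, 49.4, 46.4, 37.4 and 58.8 CPM in the hybrids and 36.5, 43.4, 20.6, 26.6 and 35.4 CPM in *com*, and these ranges overlapped (0.48, SE 0.21, adjusted p = 0.125). For *MIPOL1* (maker-ptg000051l-snap-gene-29.0) the level was 4.07 ± 1.69 CPM in the hybrids and 4.91 ± 2.06 CPM in *com* (SD, n = 5 each; -0.26, SE 0.37, adjusted p = 0.647).

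**Figure D4:**
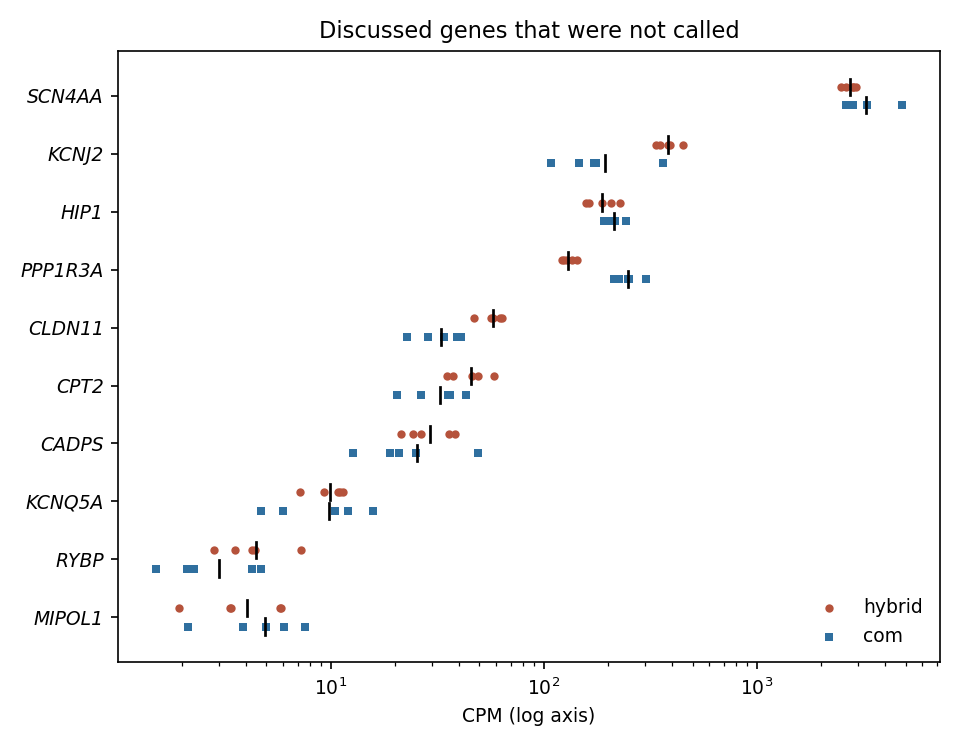
CPM (x axis, log axis) of 10 genes that the study discusses and that were not called between the groups, 1 symbol per fish, with circles for 5 hybrids above squares for 5 *com* fish and a vertical line at each group's mean. *PPP1R3A* and *CLDN11* do not overlap between the groups but lie inside the fold limit, and *KCNJ2* overlaps through 1 *com* fish at 363 CPM.

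Of the 7 candidates that the study's main text lists (*KCNJ2*, *CPNE7*, *CADPS*, *CLDN11*, *CPT2*, *MIPOL1* and *RYBP*), 1 was thus called, *CPNE7*, lower in the hybrids, and 0 were called higher (edgeR; 3 were higher at an unadjusted p under 0.05, and DESeq2 called 0 higher). This was 14.3% called, against 20.5% of all named genes and 8.45% of all genes tested, and a list of 7 is too short to tell these shares apart. The median log2 fold change of the 7 was 0.48, whereas that of all genes was 0.015. A further 10 named genes had too few counts to be tested, among them *GPR39*, with 3 counts over the 5 hybrids and 2 over the 5 *com* fish, and *DUOX1*, with 1 and 0.

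Markers of cell types were looked up among the named genes. These come from lists that the study drew from electric organ RNA, so their expression does not test the tissue label. The 6 electrocyte and muscle markers (*SCN4AA*, *KCNA7A_1*, *C10orf71*, *TMOD4*, *PPP1R3A* and *KLHL30*) were all expressed. They summed to 3922 to 4315 CPM in the hybrids and 4510 to 7396 CPM in *com*. Of these markers *KCNA7A_1* was the gene called (1 lower, 0 higher, and 0 higher at an unadjusted p under 0.05 and by DESeq2). It had 213 to 272 CPM in the hybrids and 839 to 1151 CPM in *com*, and without it the sums of the groups would overlap. *KLHL30* was not called, at 0.32 (SE 0.16, adjusted p = 0.173), and at 0.51 (adjusted p = 0.00192) without com104, which was its highest *com* fish. The 4 neuron markers found summed to 142 to 197 CPM in the hybrids and 72.5 to 95.1 CPM in *com*, but *SYNGR3* made up most of the sum in the hybrids. It was called higher, whereas *GRIA3* was called lower. *DLGAP2* was also lower without overlap, inside the fold limit (-0.84, SE 0.18, adjusted p = 0.00902), and *BRSK2* was not called (-0.53, SE 0.93, adjusted p = 0.723). Of 3 endothelial markers, which summed to 164 to 260 CPM in the hybrids and 111 to 158 CPM in *com*, *CD34* was called higher. *FGD5*, an exchange factor of endothelial cells, had 65.1 to 90.7 CPM in the hybrids and 33.7 to 61.7 CPM in *com* (0.60, SE 0.16, adjusted p = 0.0214), inside the fold limit. The third, *SCARF1*, had 38.6 ± 3.65 CPM in the hybrids and 39.3 ± 26.5 CPM in *com* (SD, n = 5 each). The 3 leukocyte markers summed to 1.39 to 4.86 CPM in the hybrids and 1.95 to 3.90 CPM in *com* with 0 calls (edgeR; 1 higher at an unadjusted p under 0.05, and 1 called higher by DESeq2). The pigment cell marker was *TYRP1*, described above. No marker was at 0 in all fish of a group, and the part of the cell type makeup in the differences of *SYNGR3*, *CD34* and *TYRP1* was not tested.

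Of the 1522 called genes, 426 had groups that overlapped, and for 389 of these the groups were separate once a single fish was left out. More than 1 fish had this effect for 194 genes, which are counted under each such fish, and just 1 fish for 195. The matching share over all overlapping genes tested was not computed, and a call itself favours groups that overlap little. Without com104 the groups were separate for 132 called genes (8.67%), 35 higher and 97 lower in the hybrids, and for 1114 (6.19%) of all 18004 genes tested, more than for any other fish in both counts. For 65 of the 132, com104 was the single fish with this effect. The corresponding numbers of called genes, shared ones included, were 93 for comrhy63, 88 for com121, 56 for comrhy59, 51 each for comrhy61 and com125, 39 for comrhy62, 27 each for comrhy60 and com123, and 19 for com124. Their shares of the called and then of all tested genes were 6.11 and 3.43% for comrhy63 and 5.78 and 4.07% for com121. They were 3.68 and 2.60% for comrhy59, 3.35 and 2.02% for comrhy61 and 3.35 and 2.99% for com125. For comrhy62 they were 2.56 and 1.76%, for comrhy60 1.77 and 1.85%, for com123 1.77 and 1.38%, and for com124 1.25 and 1.58%. Without com104, 1611 genes were called, of which 1314 were shared with the 1522 (86.3% of these and 81.6% of the 1611), 208 were lost and 297 were gained. Leaving out any 1 of the 10 fish gave 1222 calls (without com123) to 1611 (without com104).

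**Figure D5:**
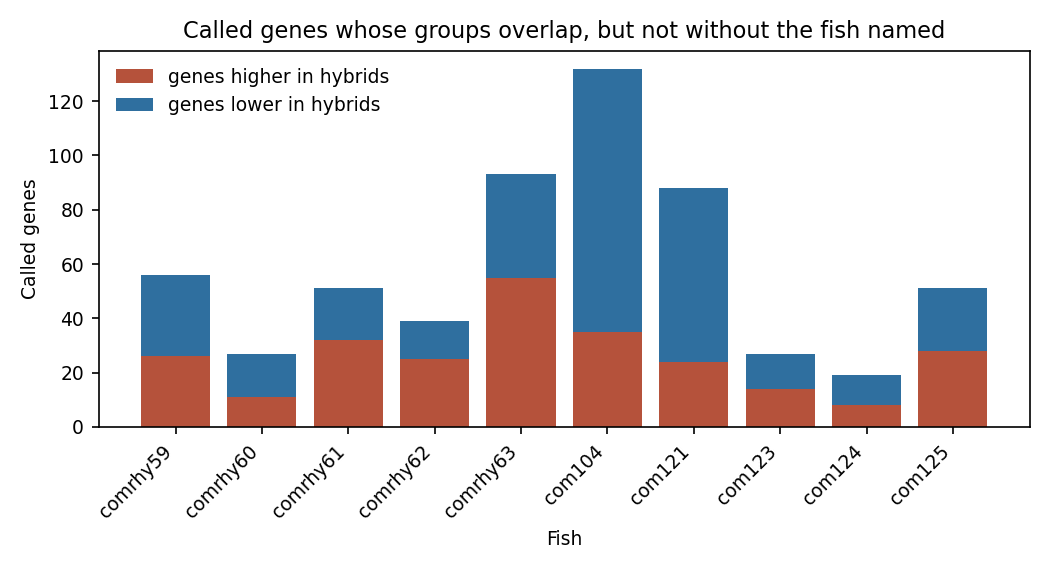
Number of called genes (y axis) whose groups overlap but are separate once the given fish is left out (x axis, hybrids left, *com* right), where a gene can count under several fish. Red parts are genes higher and blue parts genes lower in the hybrids, and the tallest bar is com104 with 132 genes, 97 of them lower in the hybrids.

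Called genes lay on many contigs, and whether they cluster more than chance gives was not tested. The 18004 genes lay on 1263 contigs, 604 of which held a call. On the 272 contigs with at least 20 tested genes, a median of 7.59% of genes was called (quartiles 4.0 and 11.0%, highest 30.4%), and 38 of them held none. By number of calls, the first contig was ptg000028l, which carries *KCNA7A_1*, with 6 higher and 12 lower of 237 genes. Next were ptg000084l, with 4 higher and 13 lower of 81 genes, and ptg000253l, with 10 higher and 7 lower of 167 genes. These numbers depend on how many genes of a contig were tested. The share called was 7.59% on ptg000028l, which is the median share, 20.99% on ptg000084l and 10.18% on ptg000253l, against 8.45% of all genes. The highest share, 30.4%, was that of ptg001288l, with 2 higher and 5 lower of 23 genes.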

How the data were processed

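Electric organ RNA of 15 juvenile fish was measured, of which 5 hybrid and 5 *com* libraries were used and 5 *rhy* libraries entered 1 alternative only. After trimming with Trimmomatic (version 0.39), the authors mapped reads and counted them with RSEM on the *C. compressirostris* genome, whose aligner is not given in the sources used here. The deposited values used are expected counts, not normalized, for 34492 gene models, rounded to whole numbers. The deposited TPM and effective lengths (in bases, unit other) by RSEM served alternatives only.

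The filter kept 18004 of 26985 genes with a count, those counted more than 10 times in 2 or more of the 10 libraries, for edgeR (version 4.0.16, R version 4.3.3): TMM, quasi-likelihood test, Benjamini-Hochberg adjustment, common dispersion 0.132. Calls needed both adjusted p under 0.05 and a fold beyond 1 on the log2 scale. The study states this fold limit with an unadjusted p. Principal components were computed from centred, unscaled log2 CPM (prior count 2). Permutation tests were exact and two-sided. Summaries and plots used matplotlib (version 3.10.9), scipy (version 1.17.1), pandas (version 2.3.3) and numpy (version 2.4.6) in Python (version 3.11.15). On simulated data with 17437 genes, log2 changes of 1.5 were found for 80% of 100 genes and of 3 for 100%, with 4 false calls. The simulation gave every gene the same dispersion of 0.132, changed no weak genes and had no fish that stood apart. It therefore does not measure recovery or false calls for the weak or uneven genes of the real data.

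Members and lists were chosen with earlier results of these data known. Named are the 7 main text candidates with *KCNA7A_1*, *KCNQ5A*, *GSN*, *SCN4AA*, *HIP1* and *PPP1R3A*, the other called genes with a name (up to 24 by fold change), the markers, and 2 unnamed models per direction. These 2 had the largest fold change among called models without overlap and with a mean of at least 1 CPM in the higher group. Genes of the study's tables named for too few counts were chosen after their values were seen. Names come from those tables alone; 4 of 146 could not be matched. Cell type markers cover only genes named there. Alternatives tried were library totals, DESeq2 (version 1.42.0) and its size factors, no filter, filterByExpr (16187 genes), a length offset, all 15 libraries, no fold limit, unadjusted p, each fish left out and, added later, the most abundant gene left out. Bounds use a floor of 3 counts over a group.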

Additional observations from a re-analysis of the deposited data

Results flagged for a closer look

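In 11 of 110 groups of 5 fish tested (the genes of the report that are named by the rule, in hybrids and in *com*), 1 fish stood apart from the other 4 by Dixon's test at the 95% level. Chance gives this in about 5% of independent groups of normally distributed values. CPM were tested without a log scale and all genes share the same fish, so that rate may not hold here. In *com*, com104 was high for *KCNJ2* (363 CPM, others 108 to 175), for *KLHL30* (184 CPM, others 98.1 to 113) and for the unnamed model maker-ptg000514l-snap-gene-9.2 (25.8 CPM, others 9.82 to 13.9), and low for *DACH1_b* (0.355 CPM, others 0.581 to 0.672). The fish com121 was high for *BRSK2* (2.71 CPM, others 0.116 to 0.709). Among the hybrids, comrhy63 was low for *DLGAP2* (9.36 CPM, others 16.2 to 17.6) and high for *COL4A6* (3.61 CPM, others 2.02 to 2.40). The hybrid comrhy61 was high for *FGD5* (90.7 CPM, others 65.1 to 71.6) and low for *C10orf71* (338 CPM, others 415 to 444). The hybrid comrhy62 was high for *PCDH11* (16.1 CPM, others 3.37 to 5.78), and comrhy60 for the unnamed model snap_masked-ptg000294l-processed-gene-1.11 (35.7 CPM, others 1.39 to 7.38).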

How the results depend on the processing

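The 1522 calls numbered 1352 (filterByExpr) to 1833 (DESeq2) under the other scalings, filters and tools, 2140 at an unadjusted p (1064 higher and 1076 lower), 3544 without the fold limit (1647 higher, 1897 lower) and 1222 to 1611 with 1 fish left out (548 to 748 higher, 674 to 863 lower). DESeq2 called 887 genes higher and 946 lower, and shared 99.5% of the 1522 calls, which were 82.6% of its own. With library totals 1147 were higher. The PC1 difference was 106 to 112 with 1 fish left out, with an exact permutation p = 0.0159, the smallest that 126 assignments allow. The difference in the share of the 10 most abundant genes was -7.09 to -4.12 percentage points, with an exact permutation p = 0.0635 without comrhy61, comrhy62, com121, com123, com124 or com125. That in genes detected was -8.33 to 178, below 0 without com123. Of the 27 called named genes, 19 were called without each fish in turn; the other 8 stand with their values in the report. *DOK2* (1.06, adjusted p = 0.0818) was called by DESeq2 (0.0484), in the fit of all 15 libraries (0.0338), with library totals (0.0327) and without comrhy62 (0.0433). Among genes not called, signs changed for *KCNQ5A* (-0.15 to 0.26 with 1 fish left out, below 0 without comrhy60, comrhy61, com121 or com123), *BRSK2* (-1.01 to 0.66, above 0 without com121), *HIP1* (0.027 with library totals) and *SCARF1* (0.14 with library totals and -0.20 to 0.45 with 1 fish left out, above 0 without comrhy62, com104 or com121). Beyond the fish left out, the cause was not tested. No paired analysis was possible because the groups share no replicate numbers. Depth limits weak genes, such as *SLC8A1* with 13 counts in the hybrids and 52 in *com*.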
